A study of Mus musculus with 6 samples.

Results

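The genes described here are 34 genes of nuclear factor kappa B (NF-kB) signalling: cytokines, chemokines, the NF-kB subunits, their inhibitors and commonly cited NF-kB target genes of the mouse. Array probes were taken where their RefSeq accession maps to one of these symbols, which gave 39 probes for the 34 genes, out of 20284 named genes on the array. The cultures were of mouse spermatogonial stem cells, which sustain sperm production. They were started from dissociated testis cells on gelatin-coated plates and later moved onto a feeder layer of mouse embryonic fibroblasts. The cultures received captopril, an inhibitor of angiotensin-converting enzyme (ACE), labelled 0.01 M, or sterile water, which carries the same label of 0.01 M, for 24 h. RNA was then measured on 3 captopril and 3 water arrays, numbered 2, 3 and 4 in both groups and described as independent experiments. The labels do not say whether separate animals were used, so the p-values measure only the spread between these samples. The RNA is that of the whole culture, so feeder cells and any remaining testis cells contribute to it, and fewer cells of a type cannot be told apart from less RNA per cell.

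NF-kB is a family of dimeric transcription factors that inhibitor proteins of the IkB family hold in the cytoplasm of resting cells. Signals such as tumour necrosis factor, interleukin 1 and bacterial products activate a kinase complex that marks IkB for destruction, and the freed dimers enter the nucleus and bind kappaB sites. Among the genes they induce are cytokines, chemokines, adhesion molecules and their own inhibitors, which end the response. In the testis the pathway has been studied in Sertoli cells, macrophages and other somatic cells, and cultured fibroblasts respond strongly to the same signals.

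Levels are log2 of each spot's background-subtracted signal relative to the 75th percentile of its array, so 0 is that percentile and a fold change is a difference of levels. They are compared between arrays, never between genes, since each probe has its own brightness. Sums over lists of marker genes, given below, weight the brightest probes most and are likewise compared between arrays alone. Between 52.2% and 60.5% of the spots of an array were well above background by the scanner software, and 14876 named genes that were so on at least 3 arrays were tested. Water replicate 3 stood apart: over these genes it correlated with each of the others at 0.884 to 0.900, against 0.967 to 0.992 for pairs among the other 5 arrays. The genes are therefore described over all 6 arrays and without that array. All markers on a list of 12 fibroblast genes were detected on every array, as were 13 of 14 spermatogonial markers, with Gfra1 below background on water replicate 3. All arrays lie on 1 slide. All captopril arrays and water replicate 4 are in slide row 2, and water replicates 2 and 3 are in row 1.

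Of the 34 genes, 30 could be tested. Tumour necrosis factor (Tnf), interleukin 1 alpha and beta (Il1a, Il1b) and the chemokine Ccl20 were not well above background on any of the 6 arrays. Over 6 arrays none of the 30 passed the test. limma called 0 of the 30 and 0 of all 14876 genes (0%) at an adjusted p under 0.05. At an unadjusted p under 0.05 there were 6 of the 30, against 1222 of all genes (8.21%). Csf2, Nfkb2 and Tnfaip2 were the 3 higher with captopril (3.31% of all genes), and Il6, Cxcl5 and Rel the 3 lower (4.91%). Captopril and water levels were fully separated in 10 of the 30 genes, 7 of them higher with captopril (Csf2, Cxcl2, Ccl2, Nfkb2, Tnfaip2, Birc3 and Lcn2) and 3 lower (Il6, Cxcl5 and Rel). Among all genes this held for 21.5%, for 10.0% with captopril higher and for 11.4% with captopril lower. Il6 passed the detection filter through its water arrays alone, so its place in these counts and in those below follows partly from that filter.

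Without water replicate 3, limma called Csf2 alone of the 30 genes, as higher with captopril. It called 91 of all genes (0.612%), 62 higher (0.417%) and 29 lower (0.195%). At an unadjusted p under 0.05 there were 9 higher and 3 lower of the 30, against 12.1% higher and 6.98% lower of all genes. The groups did not overlap in 21 of the 30 genes, against 42.9% of all genes. Of the 21, 16 had captopril higher and 5 lower, against 27.2% and 15.7% of all genes. The median log2 fold change of the 30, captopril minus water, was 0.14 over 6 arrays, with 17 positive values, where all genes had a median of −0.03 and 46.8% positive values. It was 0.22 without water replicate 3, with 19 positive values, where all genes had 0.07 and 58.5%. Scaling each array by its median instead moved the median of all genes to −0.33 and that of the 30 genes to −0.16, a shift that is the same for every gene.

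**Figure D1:**
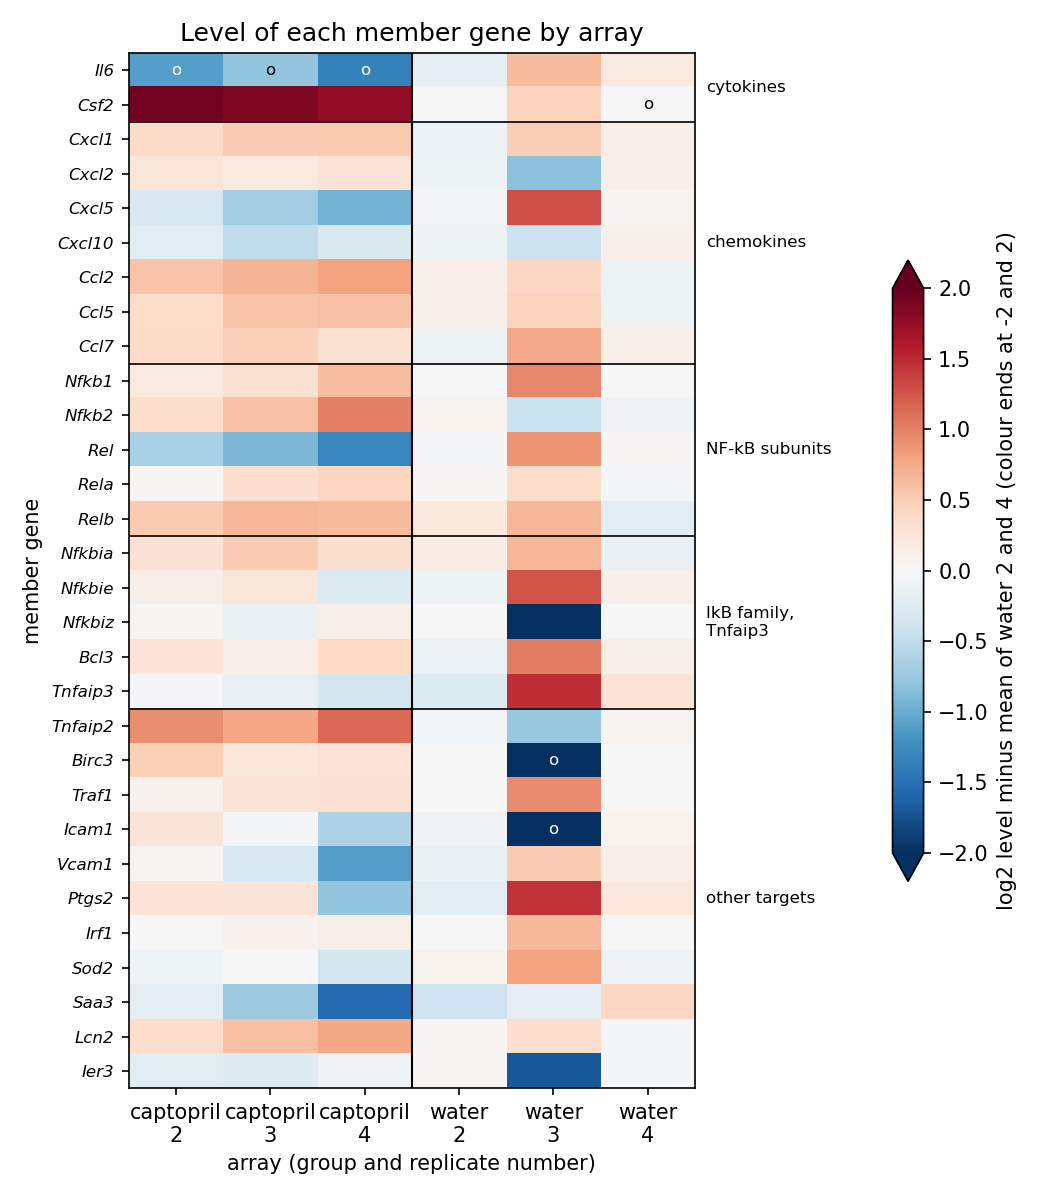
Log2 level of the 30 tested genes (rows, by role) on each of the 3 captopril and 3 water arrays (columns), shown as the difference from the mean of water replicates 2 and 4, with colours ending at −2 and 2. Circles mark arrays on which the gene was not well above background. Csf2 is the darkest red on all 3 captopril arrays, and water replicate 3 differs from its group in most rows.

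Water replicate 3 moved these genes about as it moved the rest of the array. It lay more than 1 log2 unit from the mean of water replicates 2 and 4 in 9 of the 30 genes (30%) and in 30.3% of all genes. It lay outside the range of the other 5 arrays in 21 of the 30 (70%) and in 78.9% of all genes. Icam1, Birc3, Nfkbiz and Ier3 were far below the other arrays there, while Tnfaip3, Nfkbie, Ptgs2, Cxcl5 and Bcl3 were above them.

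The promoters of 6 of these genes are shown to set the kappaB sites beside the expression values: Il6 and Csf2 as the 2 cytokines that could be tested, with values in opposite directions, Nfkb2 and Rel as subunits with values in opposite directions, Cxcl1 as a chemokine and Nfkbia as the IkB gene that NF-kB itself induces. Each is the 110 bases before the transcript start on the gene's own strand, from RefSeq for assembly GRCm38.p6. Capitals mark matches to the degenerate 10-base NF-kB (kappaB) consensus, searched on both strands, where overlapping matches share their capitals.
Il6, chr5:30013004-30013113, plus strand: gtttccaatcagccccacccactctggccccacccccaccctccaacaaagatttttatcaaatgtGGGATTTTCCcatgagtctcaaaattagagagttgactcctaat
Csf2, chr11:54249900-54250009, minus strand: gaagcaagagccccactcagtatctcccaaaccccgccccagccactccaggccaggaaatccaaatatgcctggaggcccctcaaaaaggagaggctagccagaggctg
Nfkb2, chr19:46304627-46304736, plus strand: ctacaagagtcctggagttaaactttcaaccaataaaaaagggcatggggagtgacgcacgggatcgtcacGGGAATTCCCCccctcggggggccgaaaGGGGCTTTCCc
Rel, chr11:23770970-23771079, minus strand: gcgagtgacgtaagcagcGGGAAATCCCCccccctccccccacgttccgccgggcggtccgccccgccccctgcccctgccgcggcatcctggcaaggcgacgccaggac
Cxcl1, chr5:90891135-90891244, plus strand: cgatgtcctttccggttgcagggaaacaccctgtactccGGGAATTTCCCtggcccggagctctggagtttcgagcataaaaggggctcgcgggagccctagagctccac
Nfkbia, chr12:55492648-55492757, minus strand: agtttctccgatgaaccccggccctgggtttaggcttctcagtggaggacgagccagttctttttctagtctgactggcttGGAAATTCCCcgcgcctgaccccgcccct

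In Il6 the match spans bases −44 to −35 from the start, in Cxcl1 bases −71 to −61, in Rel bases −92 to −82 and in Nfkbia bases −29 to −20. Nfkb2 has 2 separate stretches before this start, which is the first of 3 in the table. No such letters are in the printed Csf2 window, which says nothing of the factor. Over the whole window of 250 bases before to 50 after the start, 16 of the 30 promoters listed for these genes (53.3%) hold a match, against 1480 of all 32851 promoters in the table (4.51%). These 30 promoters belong to 26 of the 34 genes. The others, Cxcl5, Ccl2, Ccl5, Ccl7, Nfkb1, Relb, Nfkbiz and Vcam1, have no entry in the table. The 34 genes were chosen as NF-kB genes and commonly cited targets. The share with a match therefore reflects the choice of genes and says nothing of captopril.

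**Figure D2:**
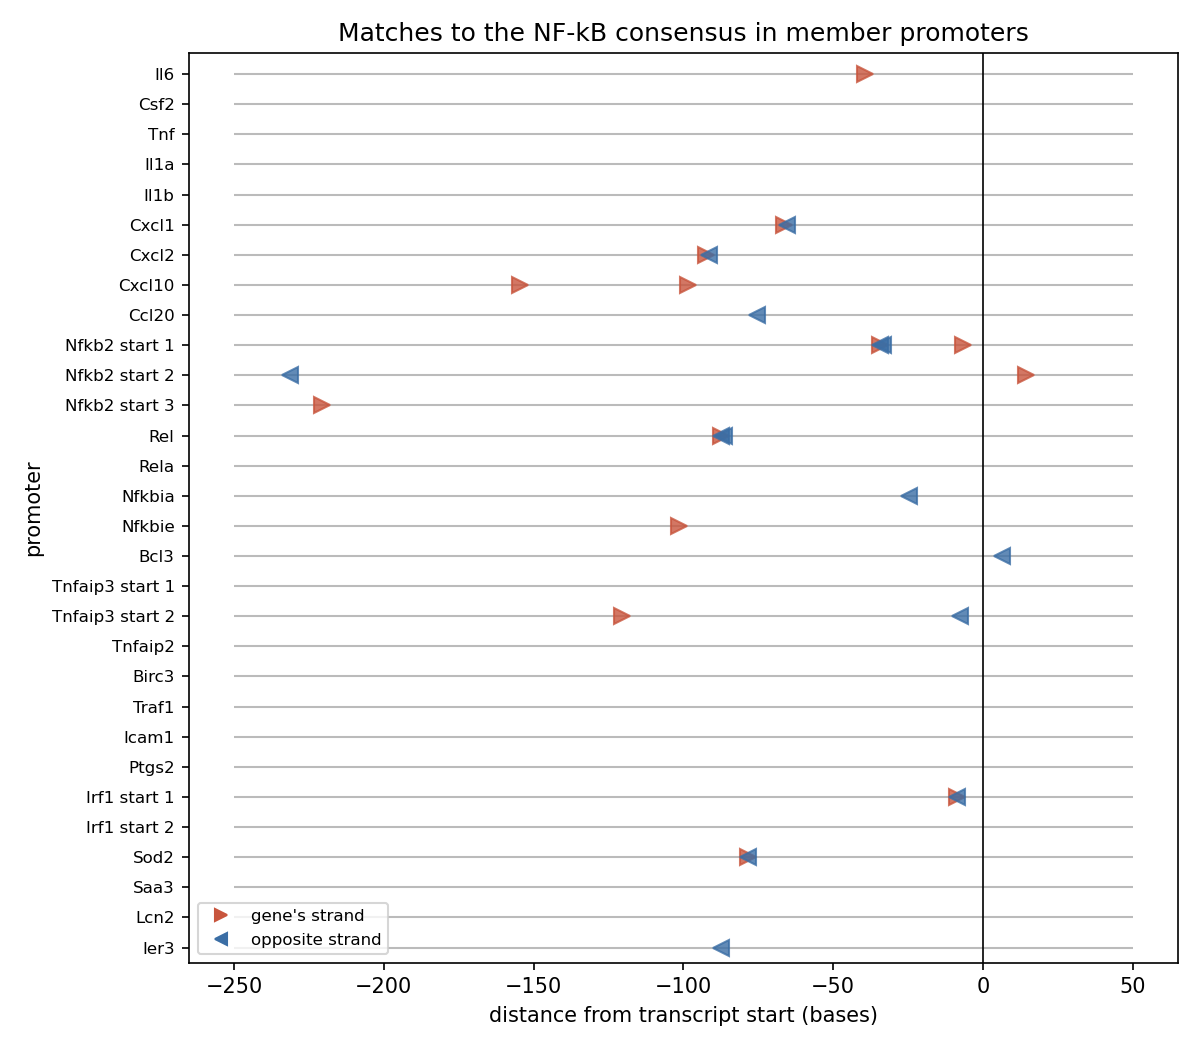
Position of each match to the NF-kB consensus (triangles, red on the gene's strand and blue on the opposite strand) from 250 bases before to 50 bases after the transcript start, for the 30 promoters of 26 genes. In 16 of the 30 promoters there is a match, and Nfkb2 holds one at each of its 3 starts.

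Genes with a match were found with values in both directions. Of the 14 genes with a match, 13 were tested, and their median log2 fold change was −0.14 over 6 arrays and 0.03 without water replicate 3, where 7 were positive and 6 negative. The 9 tested genes without a match had medians of 0.47 and 0.27, with 6 positive and 3 negative without that array. The difference between these groups of genes was not tested. Il6 and Rel with captopril-lower values and Nfkb2 and Cxcl1 with captopril-higher values all hold a match in the sequences above. The Il6 value rests on signals below detection with captopril.

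Among the cytokines, Csf2 was higher with captopril, and the measured signals of Il6, undetected on all captopril arrays, were lower. Csf2 encodes granulocyte-macrophage colony-stimulating factor, which drives the growth of myeloid cells. Its level was −3.05, −3.11 and −3.21 on captopril replicates 2, 3 and 4, against −4.98, −4.54 and −4.98 on water replicates 2, 3 and 4. All 3 captopril arrays lay above all 3 water arrays, with a gap larger than the range within either group. The means were −3.12 ± 0.08 with captopril and −4.83 ± 0.25 in water (SD, n = 3 each), a log2 fold change of 1.71 with SE 0.23 (limma, unadjusted p = 0.000123, adjusted p = 0.455 over all genes). Without water replicate 3 the log2 fold change was 1.86 with SE 0.14 and a 95% interval of 1.52 to 2.19, a 3.62-fold rise (limma, adjusted p = 0.0361). The values within slide row 2, with water replicate 4 as its single water array, gave 1.85.

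Csf2 has 10 spots on each array, so its value can be followed spot by spot. With captopril 10, 10 and 10 spots were well above background on replicates 2, 3 and 4, against 6, 5 and 4 spots in water. The SD between spots was 0.20 to 0.40 on captopril arrays and 0.21 to 0.63 on water arrays, the highest on water replicate 3. The water level thus lies at the edge of detection, and with normexp background correction, run on the median spot signal and local background in place of the processed signal, the log2 fold change was 1.04 over 6 arrays and 1.20 without water replicate 3 (limma, adjusted p = 0.0237). The call in the comparison of 5 arrays was lost on leaving out a further array in 4 of 5 cases. The adjusted p was 0.0823 without captopril replicate 3, 0.0673 without captopril replicate 4, 0.152 without water replicate 2 and 0.350 without water replicate 4, and 0.0411 without captopril replicate 2. The fits without water replicate 2 or 4 leave a single water array, which is assumed to vary like the captopril arrays. The call was also lost with quantile normalization (0.0576) and without a filter on dim probes (0.0918). T cells and macrophages, which are among the known sources of this cytokine, were followed by their markers. The summed linear level of the 7 of 8 T cell markers tested was 3.73 to 4.92 on captopril arrays and 3.08 to 4.59 on water arrays, in units of each array's 75th percentile. Without water replicate 3, 5 of the 7 were positive, with a median log2 fold change of 0.32, where 58.5% of all genes were positive. These were Cd3e at 0.65, Cd2 at 0.41, Lck at 0.32, Cd4 at 0.19 and Cd8a. Cd8a was detected on 2 captopril arrays and on water replicate 3 alone of the water arrays. Cd3d (−0.38) and Cd3g were lower on all captopril arrays, and Cd3g was called (−1.57, limma adjusted p = 0.0361). The 10 of 12 macrophage markers tested summed to 48.4 to 61.2 with captopril and 43.3 to 71.3 in water, most of which is the single bright probe of Itgam. Of these 10, 7 were positive without water replicate 3, with a median of 0.10, against the same 58.5% of all genes. The largest of them were Mrc1 at 0.85, Ptprc at 0.70 and Aif1 at 0.41. Ptprc was detected on all 3 captopril arrays and on 1 water array. Lyz2 at −0.72, Adgre1 at −0.32 and Cd14 at −0.10 were lower. The 5 of 7 endothelial markers tested summed to 1.39 to 1.97 with captopril and 1.07 to 2.02 in water. Of these 5, 3 were positive without water replicate 3, with a median of 0.43, but only 2 were detected on all 6 arrays. Markers of fibroblasts, the feeder cells, are given below with Il6. The part of any of these cell types in the Csf2 value was not tested.

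Il6 encodes interleukin 6, an inflammatory cytokine that fibroblasts and macrophages secrete. Its level was −5.92, −5.61 and −6.16 on captopril arrays 2, 3 and 4, none of which was well above background, against −4.99, −4.18 and −4.63 on water arrays 2, 3 and 4, all of which were. The groups did not overlap, and Il6 entered the tests through its water arrays alone. It has 2 spots on each array, with an SD between them of 0.10 to 1.08. The measured means were −5.90 ± 0.28 with captopril and −4.60 ± 0.41 in water (SD, n = 3 each). The water mean was 1.45-fold above the dimmest detected signals of the captopril arrays, and 1.25-fold above them without water replicate 3. Some probes stay undetected above the dimmest detected signal of their array, so these folds are a rough guide and no strict bound. With normexp the measured signals differed by −0.48 on the log2 scale over 6 arrays and by −0.26 without water replicate 3. Both differences are smaller than the folds above, which are those of the processed signal. No p is given, since Il6 was tested only because it was detected in water. The 12 fibroblast markers summed to 117 to 148 on captopril arrays and 137 to 226 on water arrays, the highest on water replicate 3. Without that array 4 of the 12 were positive, with a median log2 fold change of −0.13, where 58.5% of all genes were positive. Col3a1 (−0.66), Lum (−0.61), Postn (−1.14) and Pdgfrb (−0.72) were lower on all captopril arrays, with and without water replicate 3. Loxl1 (0.45) was higher on all of them. The part of these markers in the Il6 value was not tested.

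**Figure D3:**
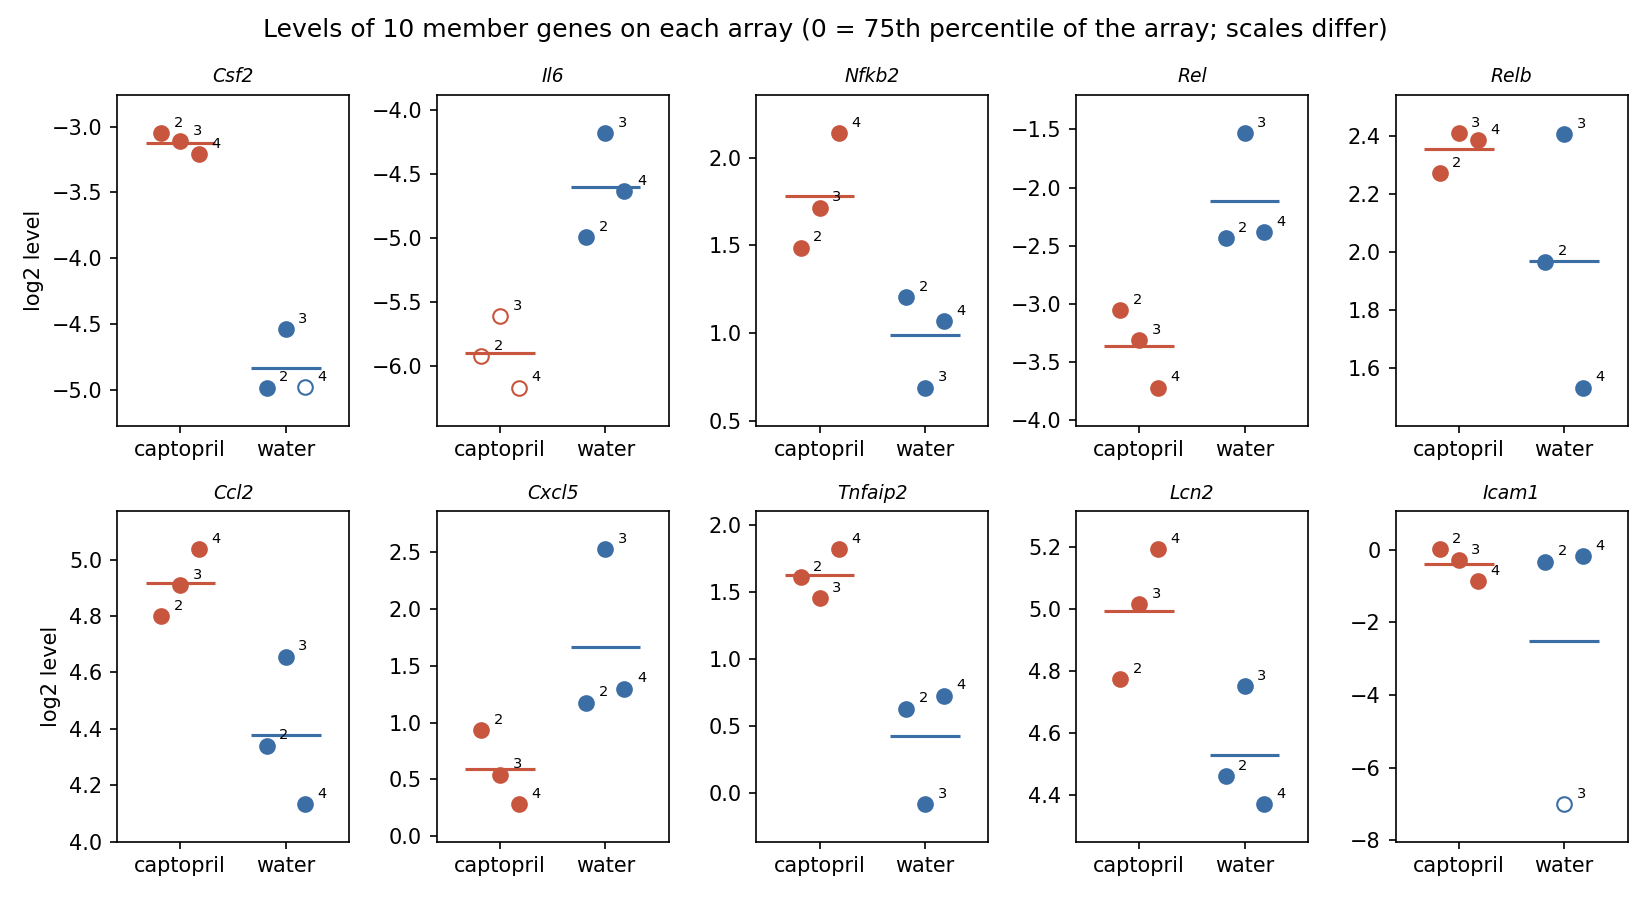
Log2 level on each array (points, numbered by replicate; open where not well above background) and group means (lines) of 10 genes, captopril left of water, with a separate scale for each gene. Csf2, Nfkb2, Tnfaip2, Ccl2 and Lcn2 lie higher on all captopril arrays and Il6, Rel and Cxcl5 lower, while in Relb and Icam1 water replicate 3 decides whether the groups overlap or how far apart the means are.

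Of the 8 chemokines, 7 were tested. In these the median log2 fold change was 0.31 over 6 arrays and 0.39 without water replicate 3, and 5 of the 7 had positive values in both, all but Cxcl5 and Cxcl10. None passed the adjusted test. Ccl2, or monocyte chemoattractant protein, had levels of 4.80, 4.91 and 5.04 on captopril replicates 2, 3 and 4, against 4.34, 4.66 and 4.13 in water, without overlap. Its log2 fold change was 0.54 (SE 0.23, limma adjusted p = 0.613) over 6 arrays and 0.68 (SE 0.16, adjusted p = 0.0942) without water replicate 3. Ccl7, its close relative with the same target cells, had 2.92, 3.02 and 2.85 with captopril, against 2.44, 3.30 and 2.64 in water, so that water replicate 3 was the highest of all 6 arrays. Without it the log2 fold change was 0.39 (SE 0.15, adjusted p = 0.231), and with it 0.14, or −0.17 with scaling by array median.

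Ccl5, which attracts T cells and monocytes, measured 0.34, 0.54 and 0.56 with captopril, against 0.07, 0.41 and −0.12 in water. Here too water replicate 3 was the highest water array and the only one to reach into the captopril range. The difference was 0.36 over 6 arrays and 0.51 (SE 0.15, limma adjusted p = 0.162) without that array. The neutrophil attractants went both ways. Cxcl1 had 2.57, 2.69 and 2.71 with captopril, against 2.08, 2.67 and 2.30 in water, a log2 fold change of 0.31 over 6 arrays and 0.47 (SE 0.15, adjusted p = 0.177) without water replicate 3. Cxcl5 had 0.93, 0.54 and 0.29 with captopril, against 1.18, 2.52 and 1.30 in water, lower on all captopril arrays. It differed by −1.08 (SE 0.40, adjusted p = 0.591) over 6 arrays, and −0.65 (SE 0.21, adjusted p = 0.182) without water replicate 3, which was its highest array. Cxcl2, the near relative of Cxcl1, was at 0.51 over 6 arrays and 0.23 without that array. Cxcl10, an interferon-induced T cell attractant, was at −0.19 and −0.34.

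**Figure D4:**
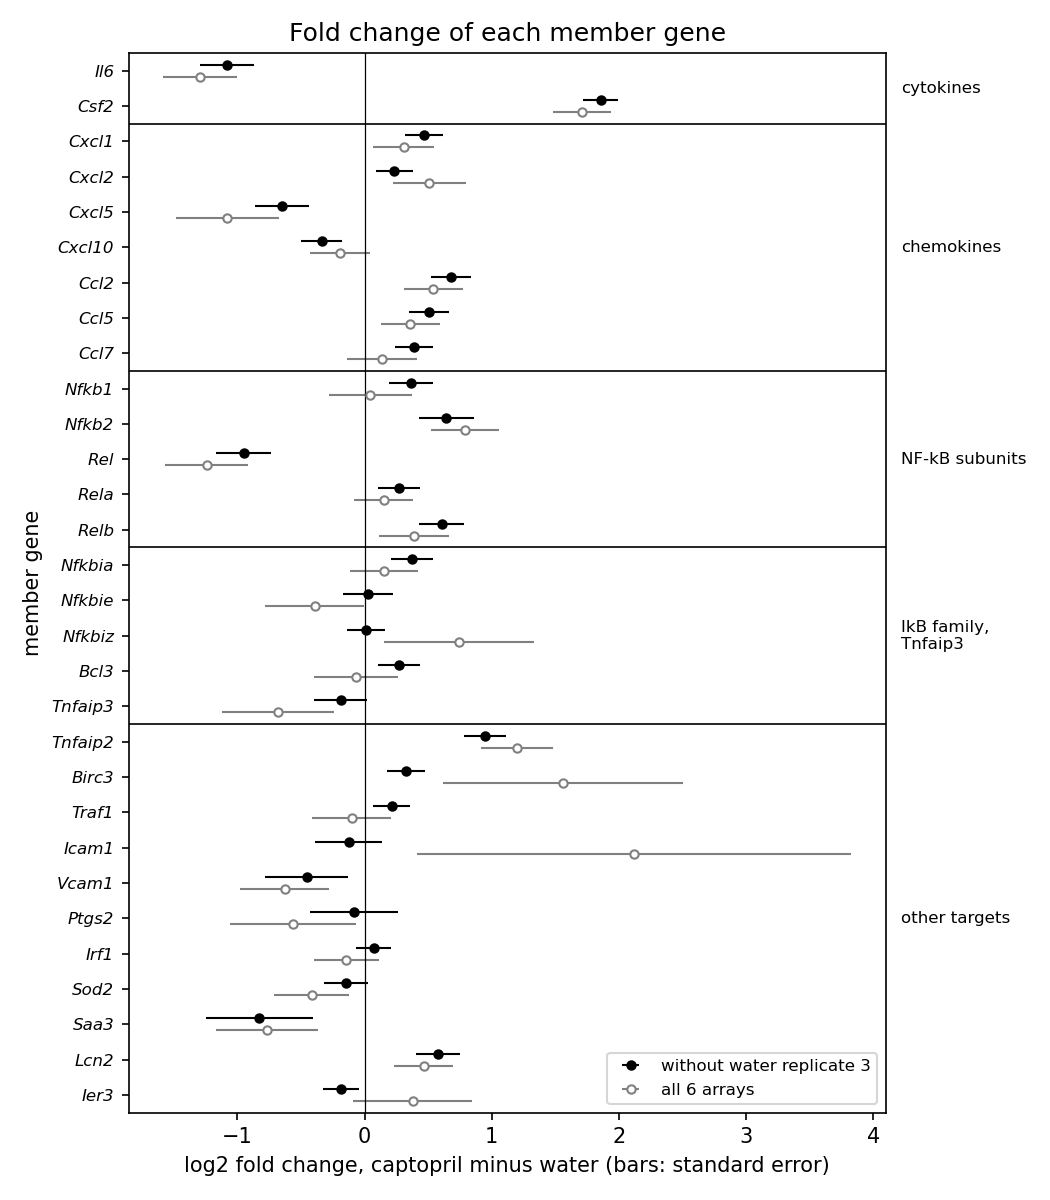
Log2 fold change, captopril minus water, of each of the 30 tested genes with its standard error, without water replicate 3 (filled) and over all 6 arrays (open), grouped by role. Csf2 lies at 1.86 and 1.71, Il6 is drawn from signals below detection on the captopril arrays, and the open bars of Icam1, Birc3 and Nfkbiz are wide because of water replicate 3.

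The 5 subunit genes did not move together, and none passed the adjusted test. Nfkb2, the precursor of the subunit that pairs with RelB in the non-canonical branch, had levels of 1.49, 1.72 and 2.14 on captopril replicates 2, 3 and 4, against 1.20, 0.69 and 1.07 in water. The groups did not overlap, with water replicate 3 the lowest. The means were 1.78 ± 0.33 with captopril and 0.99 ± 0.27 in water (SD, n = 3 each), a difference of 0.79 (SE 0.27, limma adjusted p = 0.589), and of 0.64 (SE 0.21, adjusted p = 0.186) without water replicate 3. Relb, its partner, had 2.27, 2.41 and 2.39 with captopril, against 1.97, 2.41 and 1.53 in water, and overlapped with water replicate 3 alone. The log2 fold change was 0.39 over 6 arrays and 0.61 (SE 0.18, adjusted p = 0.150) without that array, and the other Relb probe gave 0.68 and 0.75.

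Rel, the c-Rel subunit best known from lymphocytes, showed the opposite. It stood at −3.05, −3.31 and −3.72 on captopril arrays, against −2.43, −1.53 and −2.38 on water arrays, lower on all captopril arrays. The log2 fold change was −1.24 (SE 0.33, limma adjusted p = 0.511) over 6 arrays and −0.95 (SE 0.21, adjusted p = 0.0915) without water replicate 3. Rela, the p65 subunit of the canonical dimer, had 2.72, 3.01 and 3.12 with captopril, against 2.70, 3.04 and 2.66 in water, and the groups overlapped. Its log2 fold change was 0.15 over 6 arrays, −0.15 there with scaling by array median, and 0.27 without water replicate 3, with a 95% interval of −0.13 to 0.67. Nfkb1, which encodes its p50 partner, was at 0.05 over 6 arrays, −0.26 there with scaling by array median, and at 0.37 without water replicate 3. The other Nfkb1 probe gave 0.85 and 0.35. Water replicate 3 was the highest array by the chosen probe and the lowest, below background, by the other.

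The IkB family and Tnfaip3 had values in both directions. Over 6 arrays the 5 genes, all tested, lay between −0.68 and 0.74 with a median log2 fold change of −0.07, and without water replicate 3 between −0.19 and 0.37 with a median of 0.03. None passed the test or had an unadjusted p under 0.05 in either. Nfkbia, the IkB alpha gene that canonical NF-kB activity induces, had levels of 3.60, 3.83 and 3.64 with captopril, against 3.46, 3.98 and 3.17 in water. The groups overlapped through water replicate 3. Its log2 fold change was 0.15 over 6 arrays, −0.15 there with scaling by array median, and 0.37 without that array, with a 95% interval of −0.02 to 0.76. Tnfaip3, the ubiquitin-editing enzyme A20 that ends the response, was at −0.68 and −0.19. Nfkbie, another cytoplasmic IkB, was at −0.39 and 0.03. The nuclear IkB proteins Nfkbiz and Bcl3 were at 0.74 and 0.01, and at −0.07 and 0.27. In each of these 4 genes water replicate 3 was the highest or the lowest of all arrays.

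Among the 11 target genes the values were mixed, with a median log2 fold change of −0.10 over 6 arrays and −0.08 without water replicate 3. None passed the adjusted test with the processed signals. Tnfaip2, a gene induced by tumour necrosis factor, had levels of 1.61, 1.45 and 1.82 on captopril replicates 2, 3 and 4, against 0.63, −0.08 and 0.73 in water. All captopril arrays were higher. The log2 fold change was 1.20 (SE 0.28, limma adjusted p = 0.455) over 6 arrays and 0.95 (SE 0.16, adjusted p = 0.0626) without water replicate 3, and with normexp without that array it was 0.96 (adjusted p = 0.0482). Its other probe gave 1.04, 0.70 and −0.95 with captopril, against −0.74, −1.64 and 0.21 in water, so its groups overlapped. Lcn2, the siderophore-binding protein lipocalin 2, had 4.77, 5.02 and 5.19 with captopril, against 4.46, 4.75 and 4.37 in water, also without overlap. The log2 fold changes were 0.47 (SE 0.23, adjusted p = 0.619) and 0.58 (SE 0.17, adjusted p = 0.155).

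In Icam1 and Birc3 a single array set the value over 6 arrays. Icam1, which binds leukocytes, was at −6.99 and below background on water replicate 3, against −0.33 and −0.19 on the other water arrays and 0.01, −0.28 and −0.87 on captopril arrays. This gave a log2 fold change of 2.12 (SE 1.71) over 6 arrays and −0.12 (SE 0.26) without water replicate 3. Birc3, an inhibitor of apoptosis, was likewise below background there, at −6.49, and its log2 fold change was 1.56 (SE 0.95) with that array and 0.33 (SE 0.15) without it. Vcam1, the other adhesion gene, was at −0.63 and −0.46 by the chosen probe and at 0.03 and −0.60 by its other probe. Ier3, an early response gene, was at 0.38 with water replicate 3 and −0.18 without it.

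The remaining targets lay between −0.83 and 0.21 without water replicate 3. Saa3, an acute phase protein, was the lowest at −0.83 (SE 0.42, limma adjusted p = 0.328), with 2.90, 2.33 and 1.52 on captopril arrays, against 2.67, 2.90 and 3.49 on water arrays. The groups overlapped, and the captopril arrays spread over more than 1 log2 unit. Ptgs2, the inducible cyclooxygenase, was at −0.56 over 6 arrays and −0.08 without water replicate 3, Sod2, the mitochondrial superoxide dismutase, at −0.41 and −0.15, the transcription factor Irf1 at −0.14 and 0.07, and the signalling adaptor Traf1 at −0.10 and 0.21.

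**Figure D5:**
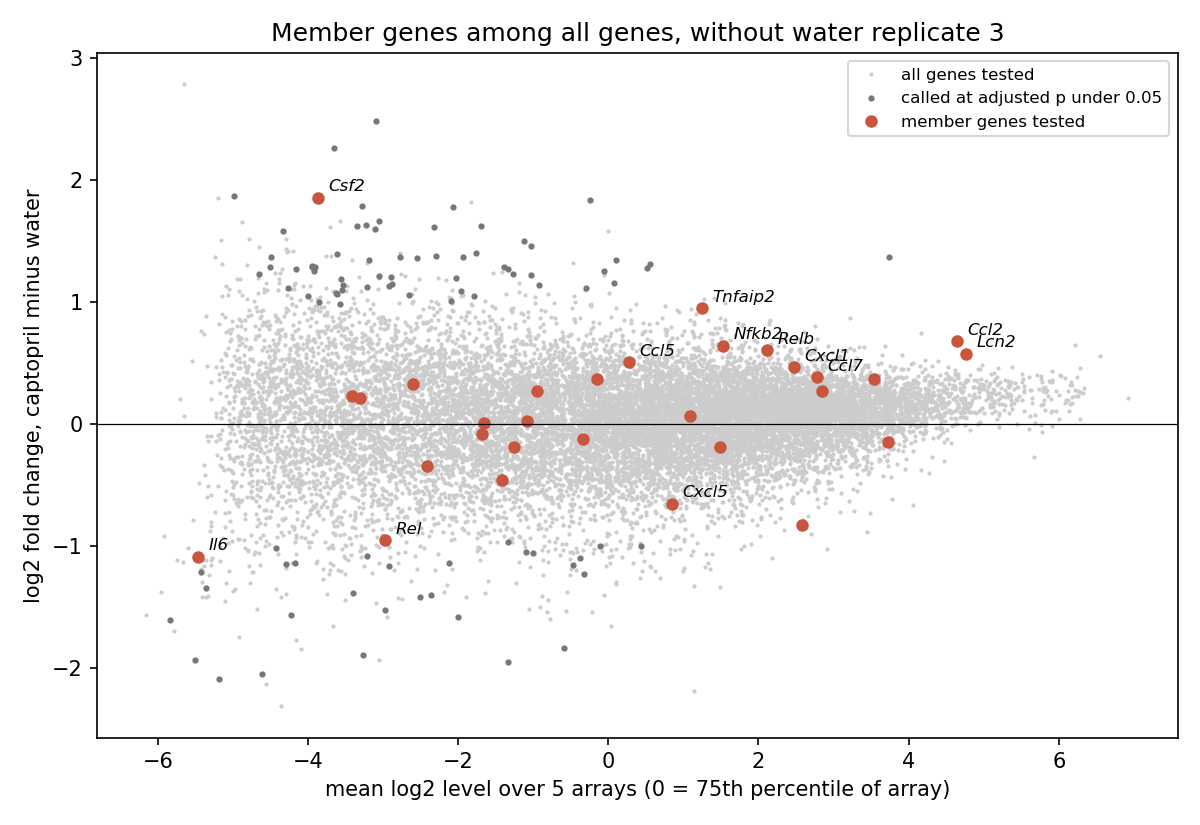
Log2 fold change, captopril minus water, against mean log2 level for all 14876 tested genes without water replicate 3, with the 30 tested NF-kB genes in red and the 91 genes called at an adjusted p under 0.05 in dark grey. Csf2 is the single red point among the called genes, and genes with an unadjusted p under 0.05 are named.

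A further list of 116 NF-kB pathway genes, of which 100 were tested, gave the setting for these values. limma called 0 of the 100 with and without water replicate 3. At an unadjusted p under 0.05 there were 11 over 6 arrays, 5 higher and 6 lower, and 23 without that array, 16 higher and 7 lower, shares that compare with 8.21% and 19.1% of all genes. Their medians were 0.08 and 0.12. Among the other ligands and targets, the eosinophil chemokine Ccl11 had levels of −1.16, −1.37 and −1.58 with captopril, against −0.31, 0.73 and 0.04 in water, lower on all captopril arrays. The difference was −1.52 over 6 arrays and −1.23 without water replicate 3 (limma, adjusted p = 0.0546), and with normexp in the comparison of 5 arrays it was called (−1.17, adjusted p = 0.0247). Ltb, or lymphotoxin beta, a ligand of the non-canonical branch, had 1.17, 1.43 and 1.27 with captopril, against 0.48, 0.55 and 0.23 in water, higher on all captopril arrays. Its log2 fold change was 0.87 over 6 arrays and 0.93 without water replicate 3 (limma, adjusted p = 0.0626). Lif, the leukaemia inhibitory factor, was at 1.18 over 6 arrays and 0.80 without that array (adjusted p = 0.0789). On water replicate 3 it was below background. Ptx3, a soluble pattern recognition protein, was at −1.01 and −0.76 (adjusted p = 0.0987).

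None of the receptors, adaptors, kinases and feedback genes passed the test, and those with the smallest p without water replicate 3 are given here, over 6 arrays and then without that array. Of the receptors, the chemokine receptor Ccr1 was at 0.40 and 0.85 (limma, adjusted p = 0.0577 without that array). It stood at −3.76, −3.65 and −3.60 with captopril, against −4.57, −3.17 and −4.47 in water, so water replicate 3 was the highest of the 6 arrays. Cd40 was at 0.09 and 0.45, Tnfrsf12a at 1.23 and 0.38 and the bacterial lipoprotein receptor Tlr2 at 0.28 and 0.36. Of the adaptors and kinases, Tradd, which binds the tumour necrosis factor receptor, was at 0.13 and 0.49, and Ikbkg, the regulatory subunit of the IkB kinase, at 0.78 and 0.41. Ripk2 was at 0.31 and −0.72 and Tab3 at −0.52 and −0.38. Of the feedback genes, the RNase gene Zc3h12a was at 0.46 and 0.66, Zfp36, whose protein destabilises cytokine messenger RNAs, at −0.03 and 0.54 and Tnip3 at 1.06 and 0.40. The signs of Ripk2 and Zfp36 thus rested on water replicate 3. Ripk2 and Tnip3 were below background on that array. Nod2 was undetected on all 3 captopril arrays and entered the tests through its water arrays alone. Its water mean was 1.73-fold above a floor for the captopril arrays, and 1.17-fold above it without water replicate 3, its brightest array. The floor was each array's dimmest detected signal, and the measured signal on captopril replicate 2, which was higher. These folds are thus a rough guide and no strict bound.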

How the data were processed

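RNA of captopril-treated and water-treated cultures was hybridised, labelled with Cy3, to single-colour Agilent arrays. Per the file headers, Agilent Feature Extraction 11.5.1.1 made the spot intensity values (10.7 per the submitters' processing notes), subtracted background and flagged detected, saturated and outlier spots. The log2 values of the series table were deposited by the authors; each column equalled log2 of the processed signal up to a constant (r = 1), so its scale is log2 and its centring close to the 75th percentile. It served as an alternative. Normexp, another alternative, also changed the input, to the median spot signal and local background.

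Here each array's 75th percentile was subtracted from log2 of the processed signal (1875 to 3424 in signal units). Control and outlier spots were left out and spots of a probe averaged. Probes were named through RefSeq accessions for GRCm38.p6: 26762 of 55681 got a symbol, and 98.0% of curated messenger RNA accessions matched. The array design used another assembly, so no probe coordinates are given. A gene is its brightest probe that was well above background on 3 or more arrays. Where a group had no detected array, its level was set to each array's dimmest detected signal, or the measured signal where higher. Such a fold is a rough guide. The test was limma (version 3.58.1 under R 4.3.3; lmFit, eBayes), two-sided, with Benjamini-Hochberg adjustment over all genes tested and a threshold of 0.05. Tables were made with pandas 2.3.3 and numpy 2.4.6 under Python 3.11.15, and plots with matplotlib 3.10.9.

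The 34 genes, the 116 further pathway genes, the marker lists and the comparison without water replicate 3 were chosen with earlier results of these data known, so no list was tested as a set. Values per array are given for genes with an unadjusted p under 0.05 in either comparison and for the brightest gene of each role. Icam1, Saa3 and second probes were added for their values. Of the further list, up to 4 genes per sublist with the smallest p without water replicate 3 are named. On simulated data with 200 of 14852 genes changed, limma recovered 0% of 2-fold and 43% of 4-fold changes over 6 arrays, and 41% and 82% without water replicate 3. The simulation gave all arrays of a gene the same spread, as estimated from these few arrays. An outlying array such as water replicate 3 was not imitated, so these rates are a rough guide only. Same-numbered arrays deviated from their group means with correlations of −0.02, 0.02 and −0.19. Captopril replicate 2 and water replicate 4 gave 0.25. Water replicate 3 weighs on the mean of its group and so on every water deviation. Whether the replicate numbers pair the samples is therefore not settled by these values. The number of arrays limits the precision.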

Additional observations from a re-analysis of the deposited data

How the results depend on the processing

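Over 6 arrays limma called none of the 34 genes under any alternative, and every call in these genes needed water replicate 3 to be left out, which was done knowing earlier results. With each array left out in turn, alone or beside water replicate 3, 0 to 1 of the 34 genes and 0 to 91 of all genes were called. Leaving out captopril replicate 2 beside water replicate 3 gave 36 calls among all genes. Without water replicate 3, scaling by array median gave 1 called gene of the 34 (Csf2) and 39 of all genes. Normexp gave 2 (Csf2 and Tnfaip2), 83 of all genes and 1 further pathway gene (Ccl11). Quantile normalization gave 0 (2997 of all genes at an unadjusted p under 0.05), as did no filter on dim probes (2844). Csf2 kept its sign throughout, at 1.04 to 1.90. With the replicate block limma called 0 genes (1369 unadjusted) and 0 of the 34, and the median of the 30 stayed at 0.14. That median was −0.16 with scaling by array median and 0.015 to 0.24 with arrays left out.

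Signs changed as follows. Scaling by array median lowers every gene alike over 6 arrays, and Ccl7 was at −0.17, Nfkb1 at −0.26, Rela at −0.15 and Nfkbia at −0.15. For the other settings the cause was not tested. With slide row as a block, and within slide row 2, Nfkbiz was at −0.0054, Bcl3 at 0.15, Traf1 at 0.21, Icam1 at −0.20, Irf1 at 0.081 and Ier3 at −0.14. Without water replicate 3, no filter gave Nfkbie 0.027, Bcl3 0.27, Traf1 0.21, Icam1 −0.12, Irf1 0.071 and Ier3 −0.18. Normexp there gave Nfkbie 0.067, Nfkbiz −0.10, Bcl3 0.25, Traf1 0.19, Icam1 −0.10, Irf1 0.0090 and Ier3 −0.20. Quantile normalization there gave Nfkbiz −0.054, Bcl3 0.24, Traf1 0.10, Icam1 −0.14, Irf1 0.043 and Ier3 −0.21, and scaling by array median there gave Nfkbiz −0.12, Bcl3 0.14, Traf1 0.081, Icam1 −0.26 and Ier3 −0.32. With arrays left out, Bcl3 ranged from −0.30 to 0.39, Ccl7 from −0.039 to 0.49, Icam1 from −0.32 to 3.28 and Ier3 from −0.24 to 0.69. Irf1 ranged from −0.26 to 0.10, Nfkb1 from −0.12 to 0.46, Nfkbia from −0.029 to 0.52 and Nfkbie from −0.65 to 0.18. Nfkbiz ranged from −0.043 to 1.12, Ptgs2 from −0.91 to 0.27, Tnfaip3 from −1.07 to 0.086 and Traf1 from −0.26 to 0.27. Signal over background limits Il6, which was undetected with captopril, and Csf2, which lay at the edge of detection in water.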
